A study of Arabidopsis thaliana with 60 samples.

Results

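Stem transcriptomes of the Arabidopsis thaliana samples labelled gpt2-1 were compared with those of wild type Col-0 set 1, the controls that the labels keep apart from the control trial of the 35S GPT2 line. The comparison used 3 samples labelled gpt2-1 and 3 wild type samples, 6 of the 15 samples of the series, and its members were all 16254 genes with a mean CPM (counts scaled to library size) of at least 2 over these 6 samples, out of 37967 named genes. Plants grew in 0.5x Noren medium, and stems were taken after 9 to 10 weeks. The labels call gpt2-1 a mutant genotype and the controls WT. They state no transgene, no treatment and no position of the mutation, no background for the mutant line, no hour of harvest, and not how many plants went into a sample. Reads came from a stranded mRNA library kit, and the 6 libraries held 16591521 to 24150373 counts.

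GPT2 is a translocator of the plastid envelope that exchanges glucose 6-phosphate for phosphate, and in Arabidopsis leaves it is known as a gene induced by sugars and by a rise in light. Plant stress programs run from receptors at the cell surface through calcium, kinases and reactive oxygen to transcription factors of the WRKY, ERF and NAC families, and on to enzymes of defence and detoxification. The circadian clock is a loop in which the morning factors CCA1 and LHY repress genes that peak in the evening, many of them through a promoter sequence called the evening element. Growth of the stem draws on cell division, microtubules, wall loosening and the hormones auxin, gibberellin, brassinosteroid and cytokinin.

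The gene that names the line was read at a high level, against the label. GPT2 (AT1G61800, chromosome 1, 22824414 to 22826902, plus strand of TAIR10.1) stood at 1.38, 1.13 and 1.38 CPM in the wild type and 123, 122 and 129 CPM in the libraries labelled gpt2-1, after scaling by the trimmed mean of M values (TMM), the scale of all levels below. The groups lie far apart (log2 difference 6.59, SE 0.09, adjusted p = 2.69e-24, edgeR quasi-likelihood F test with Benjamini-Hochberg adjustment, as for all adjusted p-values here). For this reason the samples are called by their label throughout, and no direction below is assigned to a loss of GPT2. Reads were summed over the whole gene, so their place along GPT2 is not known here. The 250 bases before the annotated start of GPT2, chr1:22824164-22824413 on the plus strand in RefSeq's TAIR10.1 sequence, are shown 5′ to 3′ on the gene's strand, as are all promoters below, because they hold 1 match (in capitals) to the evening element, which recurs below among the genes that fell. AOC2 and JAZ10, among the largest rises below, hold 1 match each too.
GPT2: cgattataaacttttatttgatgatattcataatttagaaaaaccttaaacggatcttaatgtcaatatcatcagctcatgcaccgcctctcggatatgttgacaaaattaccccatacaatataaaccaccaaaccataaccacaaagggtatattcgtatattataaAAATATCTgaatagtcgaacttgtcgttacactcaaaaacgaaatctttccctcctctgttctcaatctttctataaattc

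Of the 16254 genes, 4809 (29.6%) were higher and 4481 (27.6%) lower in the libraries labelled gpt2-1 at an adjusted p under 0.05. At least 2-fold differences were far fewer and ran mainly upward: 974 genes (5.99%) were at least 2-fold higher and 292 (1.8%) at least 2-fold lower. At 4-fold, 137 genes were higher and 24 lower. The median difference over all tested genes was -0.0086 (log2), with the 5th percentile at -0.69 and the 95th at 1.09. The 974 genes held 7.06%, 7.01% and 7.19% of all counts in the 3 wild type libraries and 15.5%, 15.7% and 16.1% in those labelled gpt2-1. The 292 genes held 0.848%, 0.817% and 0.852% of the counts in the wild type libraries and 0.283%, 0.283% and 0.279% in the others. With library totals in place of TMM scaling the median gene lay at -0.23 and the split was 2838 higher and 9277 lower genes (23.4% higher against 51.8% in the TMM fit), so every difference given here is relative to the median gene. Where that scaling moved a gene group's count by over 1.5 times, both counts are given. Of the genes described below, CYP81G1, CDPK1, PUB23, RS31a and SYP111 have 27.3% to 47.6% of their exon length opposite exons of another gene, and whether the counting told the strands apart is not known here. In stems, fewer cells of a type and less RNA per cell cannot be told apart.

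**Figure D1:**
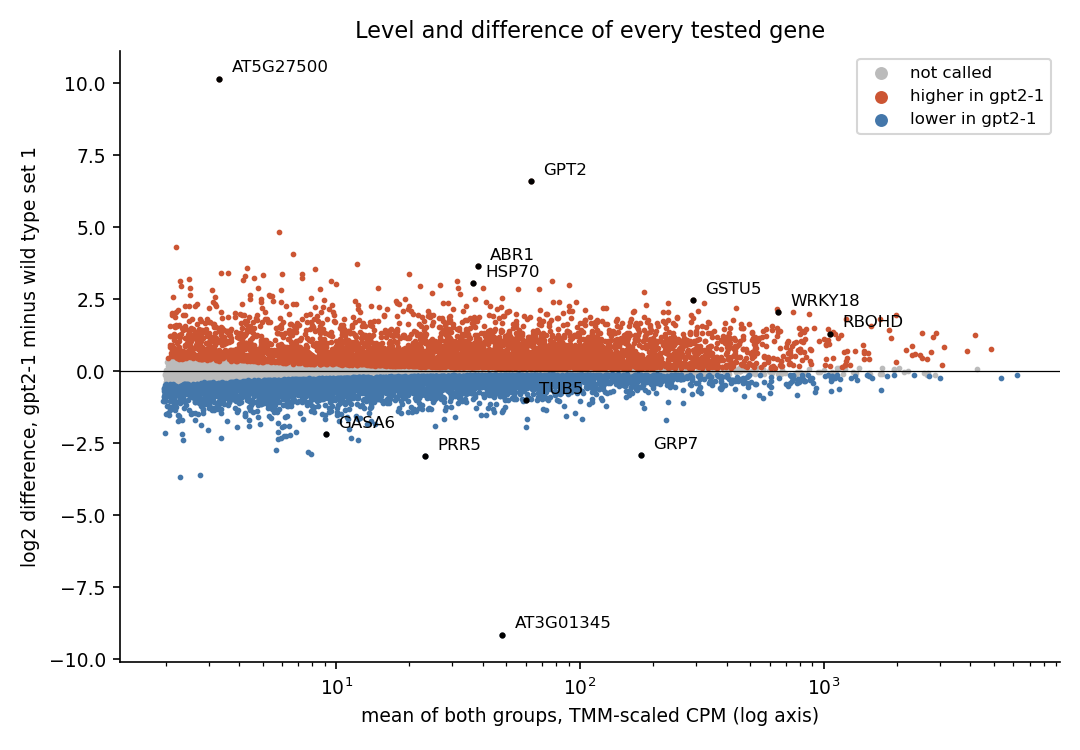
Mean level of both groups (x axis, TMM-scaled CPM, log axis) against the log2 difference of gpt2-1 minus wild type set 1 (y axis) for the 16254 tested genes, each a point coloured by its call. GPT2 stands at 6.59 and AT3G01345 at -9.14, and AT5G27500, which had 0 counts in the wild type, is drawn at its fitted value, which is not a measured fold.

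The largest rises were spread over several programs. After GPT2, ABR1, an AP2/ERF factor known as a repressor of abscisic acid responses, rose most among the genes with a symbol and at least 10 CPM on average, at 5.33, 6.23 and 5.29 CPM in the wild type and 66.8, 73.4 and 71.6 CPM in the libraries labelled gpt2-1 (log2 difference 3.64, SE 0.07, adjusted p = 1.67e-20). The gene listed as MDHAR (AT3G09940), a monodehydroascorbate reductase that regenerates ascorbate, stood at 14.6, 15.3 and 17.7 CPM in the wild type and 138, 129 and 146 CPM in the libraries labelled gpt2-1 (log2 difference 3.13, SE 0.07, adjusted p = 2.14e-20). The heat shock chaperone HSP70 (AT3G12580) stood at 8.71, 7.24 and 7.44 CPM in the wild type and 67.3, 61.5 and 66.0 CPM in the libraries labelled gpt2-1 (log2 difference 3.05, SE 0.07, adjusted p = 1.02e-19), although heat shock chaperones of this size have close copies that may share reads. Each of the 3 libraries labelled gpt2-1 lay several fold above each wild type library for these genes. HSFA2, a heat shock factor that sustains chaperone expression, rose with them (log2 difference 2.99, SE 0.09, adjusted p = 1.56e-18). GSTU5, a glutathione transferase of the tau class, stood at 87.9, 85.4 and 93.5 CPM in the wild type and 462, 507 and 512 CPM in the libraries labelled gpt2-1 (log2 difference 2.47, SE 0.05, adjusted p = 2.55e-20). GPAT3, a glycerol-3-phosphate acyltransferase, had a log2 difference of 2.42, the tyrosine aminotransferase TAT3 one of 2.68 and sks9, a relative of the SKU5 wall protein, one of 2.50. Jasmonate synthesis and turnover contributed AOC1 (3.38), AOC2 (2.88), CYP94B1 (2.84) and JAZ10 (2.40) to the 15 largest rises. AOC1 and AOC2 are near-identical neighbours, so how the counting shared reads between them is uncertain.

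Among genes with a symbol and at least 10 CPM on average, the largest falls were led by the clock. AT3G01345, which has no symbol, fell further (-9.14) and is described at the end. PRR5, a pseudo-response regulator of the evening loop, stood at 44.0, 40.2 and 38.7 CPM in the wild type and 4.94, 5.70 and 5.21 CPM in the libraries labelled gpt2-1 (log2 difference -2.96, SE 0.08, adjusted p = 1.54e-18). GRP7, a glycine-rich RNA-binding protein under clock control, stood at 325, 320.0 and 299 CPM in the wild type and 38.2, 38.8 and 47.8 CPM in the libraries labelled gpt2-1 (log2 difference -2.92, SE 0.07, adjusted p = 5.16e-20). The rule that chose these genes asked for groups without overlap, which 61.7% of all tested genes had. The cold-response factors DREB1A (-2.39) and CBF1 (-1.60), the light-dependent chlorophyll enzyme PORB (-1.68) and the B-box proteins BBX15 (-1.66), COL9 (-1.62) and BBX14 (-1.55) followed. Kinases that bind calcineurin B-like calcium sensors were among the 15, with CIPK5 at -1.65 and CIPK25 at -1.51. So were the expansins EXPA1 (-1.53) and EXPA10 (-1.49), which loosen walls, the amino acid transporter relative UMAMIT11 (-1.65) and BRH1 (-1.53), a RING protein named for its brassinosteroid response. DGR2 fell by 1.82, although its wild type libraries were uneven at 24.1, 14.7 and 23.9 CPM, against 6.004, 6.16 and 5.40 CPM.

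**Figure D2:**
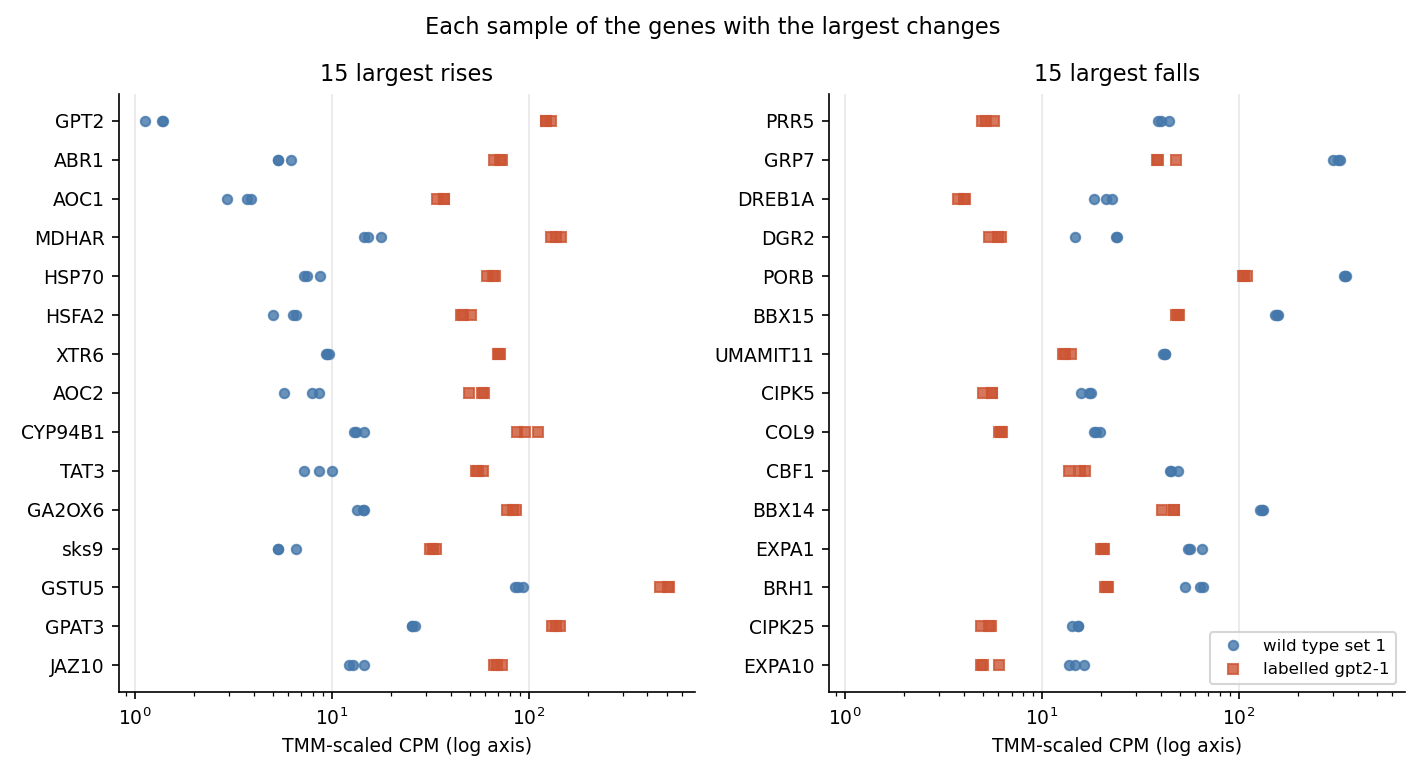
TMM-scaled CPM (x axis, log axis) of each of the 3 wild type set 1 samples (circles) and the 3 samples labelled gpt2-1 (squares) for the 15 largest rises and the 15 largest falls among called genes with a symbol, a mean of at least 10 CPM and no overlap between groups. GPT2 moves from about 1.30 to 125 CPM, and the replicates of each group lie close together beside the gap between groups.

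Genes were also ranked by the CPM they gained or lost, a ranking that favours abundant genes and also depends on gene length. AT1G59870, an ABC transporter of the PDR type known for penetration resistance to fungi, went from 2485 ± 27.5 to 5904 ± 198 CPM (mean ± SD, n = 3; log2 difference 1.25). AT1G61890, a MATE efflux carrier, went from 812 ± 31.4 to 3143 ± 59.9 CPM (log2 difference 1.95). The lipoxygenase LOX4 gained with a log2 difference of 1.80, the touch-induced wall enzyme TCH4 with 1.204, the nematode resistance homologue HSPRO2 with 0.78 and the dehydration-induced ERD7 and ERD15 with 1.44 and 0.82. The other gene products of the 10 largest gains were a MAEBL domain protein (1.31), a calcium-dependent lipid-binding protein (1.32) and a predicted nuclease (0.69). Among the 10 largest losses of reads were wall-modifying glycosidases: BGAL1 at -0.66, BXL1 at -0.69 and BGAL4 at -0.83. KCS6, which elongates fatty acids for the wax of the stem cuticle, went from 739 ± 17.9 to 392 ± 16.9 CPM (log2 difference -0.91, SE 0.05, adjusted p = 7.24e-14). Catalase 3 (AT1G20620) fell by 0.22, the peroxidase PRXR1 by 0.22, the vacuolar protease RD19 by 0.71, a dehydrin (AT1G54410) by 0.63 and BBD1, a nuclease of basal defence, by 0.60. CAB1, a light-harvesting protein, was the remaining one, at -0.15. Its call was lost when wild type replicate 1 or 2 or any of the gpt2-1 replicates was left out, and reads of near-identical light-harvesting genes may be shared with it.

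Genes of pattern-triggered immunity, the response to microbial molecules at the cell surface, rose almost throughout. In the pattern-triggered immunity list, 20 of 22 tested members rose and 0 fell (median log2 difference 0.70, and 19 higher and 2 lower with library totals), against 29.6% higher genes overall. IOS1, a leucine-rich repeat kinase that aids immune receptor complexes, led the list (2.08), followed by MPK11, a MAP kinase of this pathway, at 62.1, 59.5 and 62.2 CPM in the wild type and 193, 198 and 183 CPM in the libraries labelled gpt2-1 (log2 difference 1.64, SE 0.05, adjusted p = 2.39e-18). PEPR1, a receptor for danger peptides, stood at 238, 238 and 246 CPM in the wild type and 749, 711 and 774 CPM in the libraries labelled gpt2-1 (log2 difference 1.63, SE 0.05, adjusted p = 2.5e-18). RBOHD, the main oxidase of the immune oxidative burst, had a log2 difference of 1.31 and RBOH F one of 1.27. The receptors EFR (0.88) and FLS2 (AT5G46330, 0.66), which bind bacterial patterns, their co-receptor BAK1 (0.70) and the chitin receptor kinase CERK1 (0.69) rose too. MPK6 (0.03) and MKK9 (-0.08) did not pass the test.

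Of the intracellular immune receptors and their partners, 13 of 15 tested members rose and 1 fell (median log2 difference 0.51, and 8 higher and 3 lower with library totals). The lipase-like regulators EDS1 (1.01), SAG101 (1.01) and PAD4 (0.95) act together downstream of such receptors and shared similar differences. The receptor ZAR1 stood at 378, 380.2 and 390.0 CPM in the wild type and 724, 754 and 738 CPM in the libraries labelled gpt2-1 (log2 difference 0.95, SE 0.05, adjusted p = 1.42e-14). RPP13 fell by 0.19. In the receptor kinase families, 23 of 27 tested members rose and 2 fell (median log2 difference 1.01, and 21 higher and 4 lower with library totals) among cysteine-rich receptor kinases, and 14 of those that rose did so at least 2-fold. CRK11 stood at 32.8, 33.2 and 36.3 CPM in the wild type and 142, 132 and 135 CPM in the libraries labelled gpt2-1 (log2 difference 2.01, SE 0.05, adjusted p = 5.12e-19), and CRK14, CRK18 and CRK41 had log2 differences of 1.71, 1.26 and 1.16. Several CRK genes lie side by side as close copies, so their split of reads is uncertain. For wall-associated kinases, thought to sense pectin, 7 of 9 tested members rose and 1 fell (median log2 difference 0.59, and 5 higher and 3 lower with library totals), with WAKL10 at 1.44. For lectin receptor kinases, 13 of 21 tested members rose and 5 fell (median log2 difference 0.43). LecRK-I.9, a receptor for extracellular ATP, had a log2 difference of 1.12, and AT1G70130 the highest of the 4 named at 2.43.

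Calmodulin-like proteins and calcium-dependent protein kinases, which read calcium signals, rose more often than they fell, unlike CIPK5 and CIPK25 above. Among calmodulin-like proteins 8 of 9 tested members rose and 0 fell (median log2 difference 0.92, and 7 higher and 1 lower with library totals). CML38 stood at 415, 446 and 486 CPM in the wild type and 1265, 1247 and 1203 CPM in the libraries labelled gpt2-1 (log2 difference 1.46, SE 0.05, adjusted p = 1.48e-16), and CML37, TCH3 and CAM9 had log2 differences of 1.44, 1.34 and 0.90. Of the calcium-dependent protein kinases, 18 of 25 tested members rose and 1 fell (median log2 difference 0.62, and 16 higher and 7 lower with library totals). CPK28, which limits immune signalling by acting on the kinase BIK1, stood at 641, 645 and 647 CPM in the wild type and 1559, 1529.5 and 1674 CPM in the libraries labelled gpt2-1 (log2 difference 1.30, SE 0.05, adjusted p = 1.93e-16). The gene listed as CDPK1 (1.07), CPK6 (0.98) and CPK9 (0.91) rose too. The U-box ubiquitin ligases were mixed, with 9 of 21 higher and 5 lower (8 higher and 10 lower with library totals). All tested genes stood at 29.6% higher and 27.6% lower in the TMM fit. PUB23 (1.21) and PUB24 (1.08), which dampen immune signalling, were among those that rose.

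Transcription factor families split. For WRKY factors, 23 of 44 tested members rose and 12 fell (median log2 difference 0.27). WRKY18 stood at 251, 241 and 272 CPM in the wild type and 1071, 1019 and 1057 CPM in the libraries labelled gpt2-1 (log2 difference 2.05, SE 0.05, adjusted p = 3.2e-19), and its partner WRKY40 had a log2 difference of 1.24. WRKY55 (2.63) and WRKY75 (1.82) rose as well, whereas WRKY70, a factor of salicylate responses, fell by 0.18 and WRKY35 by 1.32. For NAC factors, 19 of 51 rose and 13 fell (16 higher and 25 lower with library totals). Of all tested genes, 29.6% were higher and 27.6% lower in the TMM fit. RD26, a dehydration-induced NAC factor, stood at 16.2, 17.2 and 13.1 CPM in the wild type and 55.1, 58.05 and 61.4 CPM in the libraries labelled gpt2-1 (log2 difference 1.89, SE 0.07, adjusted p = 3.47e-16), and NAC102, NAC090 and NAC061 had log2 differences of 1.57, 1.61 and 1.35. The rapid stress factors all passed the test, 12 of 20 upward and 8 downward. The stress-induced AP2/ERF factors RAP2.6 (1.94), DDF1 (1.84), ERF13 (1.21), RRTF1 (1.09) and ERF11 (1.02) rose, and all 3 cold factors of the CBF cluster, DREB1A, CBF1 and CBF2, fell. CBF2 fell by 0.73, ERF5 by 1.05 and ERF104 by 0.46.

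Enzymes that lead from chorismate to tryptophan and camalexin, the indole phytoalexin of Arabidopsis, rose as a set: 9 of 9 tested members were higher and 0 lower, with a median of 1.00, and the same count held with library totals. ASB1, a subunit of the anthranilate synthase that commits chorismate to tryptophan, stood at 39.0, 39.0 and 42.0 CPM in the wild type and 139.7, 145 and 148 CPM in the libraries labelled gpt2-1 (log2 difference 1.85, SE 0.05, adjusted p = 7.03e-19). The other subunit, ASA1, had a log2 difference of 1.00, PAT1 (AT5G17990), which adds the ribose unit, 1.17, and TSB1, which makes tryptophan, 0.69. CYP79B2 (0.75) and CYP79B3 (0.88) open the indole branch. GGP1, which processes the glutathione conjugate, stood at 280.2, 278 and 296 CPM in the wild type and 740.3, 725 and 734 CPM in the libraries labelled gpt2-1 (log2 difference 1.36, SE 0.05, adjusted p = 2.99e-17). PAD3, the last step to camalexin, rose by 1.56.

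Glutathione transferases rose as well. Of the tau and phi glutathione transferases, which couple glutathione to reactive compounds, 15 of 21 tested members rose and 1 fell (median log2 difference 0.74, and 13 higher and 4 lower with library totals). Beside GSTU5, GSTU4 had a log2 difference of 2.29, GSTF6 1.71 and GSTF7 1.33, the last pair being close neighbouring copies. UGT73B5, a glucosyltransferase of redox responses, stood at 18.6, 18.5 and 18.6 CPM in the wild type and 71.6, 70.0 and 68.0 CPM in the libraries labelled gpt2-1 (log2 difference 1.91, SE 0.06, adjusted p = 1.85e-18), and UGT73B2 had a log2 difference of 2.55. MGD1, which makes the galactolipid of plastid membranes, had one of 1.78. The whole glycosyltransferase family was split, with 13 of 29 higher and 11 lower (10 higher and 15 lower with library totals), and so were the cytochromes P450, with 36 of 102 higher and 43 lower (23 higher and 58 lower with library totals). CYP81G1 rose from 0.73 ± 0.221 to 12.6 ± 1.65 CPM (log2 difference 4.07, SE 0.18, adjusted p = 2.21e-15). In the ABC transporters, 24 of 75 rose and 21 fell (12 higher and 45 lower with library totals). In the TMM fit these shares are close to those of all tested genes, 29.6% higher and 27.6% lower. Single ABC members that rose were ABCC7 (1.99) and ABCB21 (1.71), an auxin carrier. Among genes that handle hydrogen peroxide, 7 of 12 rose and 1 fell (4 higher and 3 lower with library totals). DHAR1, which recycles ascorbate, stood at 159, 157 and 159.8 CPM in the wild type and 298, 325 and 316 CPM in the libraries labelled gpt2-1 (log2 difference 0.98, SE 0.05, adjusted p = 1.25e-14), APX1 had a log2 difference of 0.84 and catalase 2 (AT4G35090) 0.51, opposite in direction to catalase 3.

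Several HSP70 and HSP90 chaperone genes rose, while some heat shock factors fell. For heat shock proteins and factors, 20 of 37 tested members rose and 6 fell (median log2 difference 0.18, and 14 higher and 13 lower with library totals). Hsp70-2 stood at 30.8, 30.9 and 31.0 CPM in the wild type and 156, 169 and 160.1 CPM in the libraries labelled gpt2-1 (log2 difference 2.39, SE 0.05, adjusted p = 2.55e-20). HSP101, the disaggregase of heat tolerance, had a log2 difference of 1.77, HSFA7A 1.37 and HSP90.1 1.27. HSP18.2, a small heat shock protein, had a log2 difference of 0.03 and did not pass. The factors HSFB4 and HSFA8 fell by 1.097 and 0.70. In the endoplasmic reticulum, 15 of 16 folding genes rose and 0 fell, with a median of 0.35 (9 higher and 0 lower with library totals). BIP3 (1.43) and BIP2 (0.83) are luminal chaperones, and BZIP60, a factor of the unfolded protein response, stood at 181, 172 and 191 CPM in the wild type and 362, 368 and 378 CPM in the libraries labelled gpt2-1 (log2 difference 1.03, SE 0.05, adjusted p = 9.32e-15). The promoters of HSP70, chr3:3993887-3994136 on the minus strand, and GPAT3, chr4:846815-847064 on the minus strand, are shown as 2 of the largest rises with a CGCG element (CGCGTT or CGCGTG), a sequence known to bind CAMTA factors, which respond to calcium through calmodulin. Capitals mark that element, and in GPAT3 also the W-box, the site of WRKY factors. The upstream bases of COL9, among the largest falls, hold a CGCG element too.
HSP70: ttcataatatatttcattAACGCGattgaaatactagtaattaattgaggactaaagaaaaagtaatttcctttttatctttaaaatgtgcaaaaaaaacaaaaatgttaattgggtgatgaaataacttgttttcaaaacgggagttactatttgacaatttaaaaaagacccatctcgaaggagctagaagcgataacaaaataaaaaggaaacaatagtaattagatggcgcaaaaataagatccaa
GPAT3: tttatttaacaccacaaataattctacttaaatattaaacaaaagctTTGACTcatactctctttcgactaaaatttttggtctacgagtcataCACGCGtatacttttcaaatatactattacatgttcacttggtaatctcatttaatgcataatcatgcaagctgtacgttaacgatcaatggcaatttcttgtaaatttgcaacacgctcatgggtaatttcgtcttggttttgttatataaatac

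Most tested genes of the alternative respiratory path in mitochondria rose. The alternative oxidase AOX1D stood at 2.32, 2.61 and 2.81 CPM in the wild type and 9.44, 10.3 and 10.99 CPM in the libraries labelled gpt2-1 (log2 difference 2.00, SE 0.13, adjusted p = 2.94e-12), and AOX1A had a log2 difference of 0.75. The external dehydrogenase NDB2 (1.43) and NDA1 (0.85) rose, whereas the dehydrogenase NDA2 (-0.12) and the regulator NAC017 (-0.09) did not pass and the regulator NAC13 fell by 0.44. In all, 5 of 8 tested members rose and 1 fell (median log2 difference 0.59, and 5 higher and 3 lower with library totals). The core hypoxia genes went both ways, 4 of 10 upward and 4 downward (3 higher and 5 lower with library totals). All tested genes stood at 29.6% higher and 27.6% lower in the TMM fit. LBD41 rose by 1.67, while PDC2 of fermentation fell by 0.86 and ADH1 by 0.41. Glycolysis had 1 of 14 members higher and 6 lower (0 higher and 13 lower with library totals), and the tricarboxylic acid cycle 1 of 8 higher and 2 lower (0 higher and 7 lower with library totals). The phosphofructokinase PFK7 fell by 0.52.

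Ribosomal protein genes shifted by small steps in 1 direction. Of 224 tested, 131 rose and 12 fell, none of them by 2-fold, with a median of 0.29 against -0.0086 for all tested genes. With library totals the counts were 69 higher and 47 lower, so this shift holds relative to the median gene. RPL18 stood at 93.7, 94.7 and 89.5 CPM in the wild type and 129, 130.1 and 133 CPM in the libraries labelled gpt2-1 (log2 difference 0.49, SE 0.05, adjusted p = 2.2e-09). The gene listed as emb2386, a ribosomal protein of the L19e family, stood at 303, 311 and 294 CPM in the wild type and 436, 412 and 435 CPM in the libraries labelled gpt2-1 (log2 difference 0.50, SE 0.05, adjusted p = 2.25e-09). Cytosolic ribosomal proteins come as families of near-identical copies, so single members are less certain than the sum. The letters TGGGCC, the site II element known from genes of ribosomes and cell growth, occur on either strand in 57.1% of the 224 promoter windows (250 bases before to 50 after the start) and in 19.97% of the windows of all tested protein-coding genes. They are in capitals in the upstream sequences of emb2171, chr3:1167000-1167249 on the plus strand, and RPL18, chr3:1621105-1621354 on the plus strand, the ribosomal genes with the smallest p.
emb2171: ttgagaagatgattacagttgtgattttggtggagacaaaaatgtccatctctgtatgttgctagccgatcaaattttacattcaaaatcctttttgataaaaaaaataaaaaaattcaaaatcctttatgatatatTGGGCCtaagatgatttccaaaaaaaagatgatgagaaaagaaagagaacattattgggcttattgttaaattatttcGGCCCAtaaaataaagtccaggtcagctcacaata
RPL18: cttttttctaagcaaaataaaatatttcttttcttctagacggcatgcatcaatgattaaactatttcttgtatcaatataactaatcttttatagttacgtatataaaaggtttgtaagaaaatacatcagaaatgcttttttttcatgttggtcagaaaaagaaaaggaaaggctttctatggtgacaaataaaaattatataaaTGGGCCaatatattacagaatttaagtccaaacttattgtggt

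Of the SR splicing factors, 14 of 19 rose and 1 fell (4 higher and 3 lower with library totals). RS31a had the smallest p, at 8.83, 9.07 and 8.38 CPM in the wild type and 15.98, 15.7 and 15.1 CPM in the libraries labelled gpt2-1 (log2 difference 0.83, SE 0.09, adjusted p = 1.54e-08). Subunits of the proteasome mostly did not pass: 9 of 38 rose and 3 fell (3 higher and 28 lower with library totals). Genes of autophagy, which recycles cell contents through the vacuole, went down more often than up. There 2 of 26 rose and 14 fell (1 higher and 19 lower with library totals), with a median of -0.16. ATG8H, a ubiquitin-like protein of the autophagosome, fell by 0.54, ATG18H by 0.37 and ATG6 by 0.30, whereas G18F rose by 0.36.

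Evening genes of the clock fell. The labels give no hour of harvest, and its part in the clock, B-box and light results was not tested. Of 9 tested evening-phased genes, 8 fell and 1 rose, with a median of -0.87. Beside PRR5 and GRP7, the blue light receptor FKF1 stood at 10.14, 9.53 and 10.6 CPM in the wild type and 1.79, 2.49 and 2.02 CPM in the libraries labelled gpt2-1 (log2 difference -2.26, SE 0.14, adjusted p = 1.11e-12). ELF3, of the evening complex, stood at 61.2, 61.8 and 58.9 CPM in the wild type and 32.1, 32.3 and 35.5 CPM in the libraries labelled gpt2-1 (log2 difference -0.87, SE 0.06, adjusted p = 2.9e-12). Its partner LUX, listed as PCL1, fell by 1.02, GI by 0.79, and TOC1 rose by 0.11, which reversed when counts were scaled by library totals, as all 9 were then lower. Of 10 day-phased genes, 5 rose and 5 fell. Those that rose were the morning factors LHY, at 32.4, 32.4 and 32.0 CPM in the wild type and 82.8, 77.7 and 72.9 CPM in the libraries labelled gpt2-1 (log2 difference 1.27, SE 0.06, adjusted p = 2.69e-15), and CCA1 (0.60), the activator RVE8 (0.79) and the coactivators LNK2 (AT3G54500, 0.84) and LNK1 (AT5G64170, 0.16). Those that fell were PRR9 (-0.88), RVE7 (AT1G18330, -0.83), RVE2 (-0.65), RVE1 (-0.51) and PRR7 (-0.21). The promoters of PRR5, chr5:8358547-8358796 on the minus strand, and GRP7, chr2:9266558-9266807 on the minus strand, are printed for their evening elements, in capitals, with 1 match in PRR5 and 3 in GRP7. The other capitals in GRP7 are 2 site II elements.
PRR5: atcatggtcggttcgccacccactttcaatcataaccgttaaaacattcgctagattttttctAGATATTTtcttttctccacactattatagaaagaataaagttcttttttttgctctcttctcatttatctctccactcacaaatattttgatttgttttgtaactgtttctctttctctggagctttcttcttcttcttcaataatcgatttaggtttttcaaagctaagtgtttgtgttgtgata
GRP7: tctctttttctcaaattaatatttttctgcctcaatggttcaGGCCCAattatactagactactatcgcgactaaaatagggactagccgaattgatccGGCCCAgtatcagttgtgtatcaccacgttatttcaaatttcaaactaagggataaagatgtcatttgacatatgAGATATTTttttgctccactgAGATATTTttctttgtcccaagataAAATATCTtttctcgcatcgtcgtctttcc

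B-box proteins, zinc finger regulators of light responses many of which are under clock control, fell with the evening genes: 14 of 22 fell, 1 rose, and the median was -0.43 (0 higher and 19 lower with library totals). BBX8 (-1.95) and BBX17 (-1.22) fell beside BBX15, which stood at 157, 152 and 157 CPM in the wild type and 48.1, 48.9 and 49.9 CPM in the libraries labelled gpt2-1 (log2 difference -1.66, SE 0.05, adjusted p = 1.36e-18). The member that rose was COL2 (0.28). In the light signalling list 3 of 18 rose and 6 fell (1 higher and 12 lower with library totals). All tested genes stood at 29.6% higher and 27.6% lower in the TMM fit. The cryptochromes CRY1 and CRY2 fell by 0.31 and 0.30, while ELIP2, induced by excess light, rose by 1.34. For chlorophyll synthesis, 8 of 10 fell and 1 rose. PORB stood at 339.6, 347 and 348 CPM in the wild type and 110.5, 106 and 105 CPM in the libraries labelled gpt2-1 (log2 difference -1.68, SE 0.05, adjusted p = 7.03e-19). CH1, which makes chlorophyll b, fell by 0.61 and CHLI1, a subunit of magnesium chelatase, by 0.46, whereas HEMA1, at the entry of the pathway, rose by 0.47. Among flowering regulators, FT had a log2 difference of 0.30, and with library totals it was 0.07 and did not pass.

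**Figure D3:**
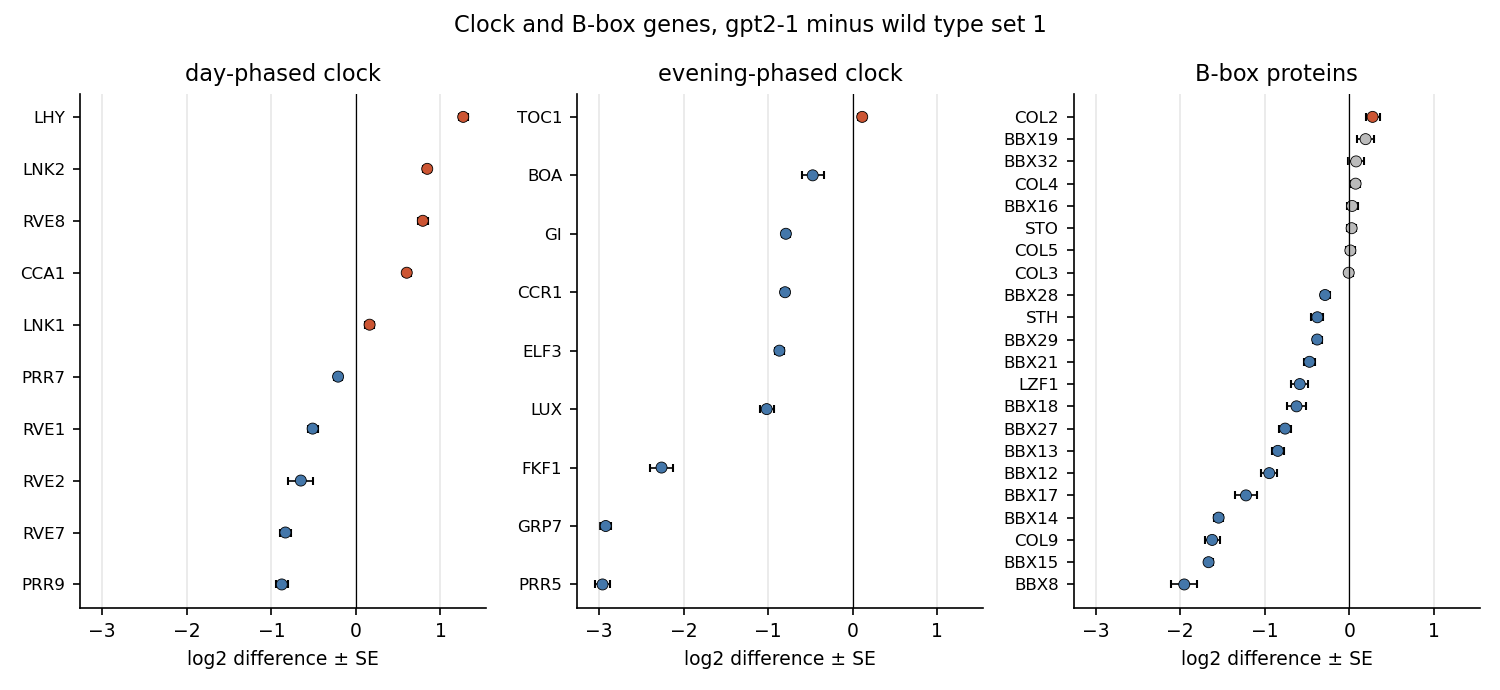
Log2 difference (x axis, gpt2-1 minus wild type set 1, bars show the SE of the fit) of each tested day-phased clock, evening-phased clock and B-box gene, with called rises in red, called falls in blue and genes that did not pass in grey. The evening-phased genes lie left of 0 except TOC1 at 0.11, and the day-phased genes lie on both sides, from -0.88 to 1.27.

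Genes of cell division and of microtubules fell more often than they rose. Histones had 19 of 31 members lower and 1 higher, with a median of -0.39 (1 higher and 29 lower with library totals). The histone H4 gene AT3G53730 stood at 20.4, 21.4 and 21.4 CPM in the wild type and 10.6, 9.97 and 10.3 CPM in the libraries labelled gpt2-1 (log2 difference -1.03, SE 0.08, adjusted p = 6.69e-11), and HIS1-3, a drought-linked linker histone, fell by 0.73. Of 7 replication genes, 5 fell (also 5 with library totals), among them the helicase subunits MCM2 (-1.11), MCM4 (-0.78) and MCM3 (-0.76), and TSO2, a ribonucleotide reductase subunit, rose by 0.39, which with library totals was 0.17 and did not pass. For cytokinesis and mitosis 4 of 7 fell and 0 rose. The call of 1 of these, HIK, was lost without wild type replicate 1 or without either of gpt2-1 replicates 1 and 2. It was also lost with DESeq2 in place of edgeR. SYP111, a syntaxin of the cell plate also called KNOLLE, stood at 4.19, 4.28 and 4.68 CPM in the wild type and 2.86, 2.95 and 2.84 CPM in the libraries labelled gpt2-1 (log2 difference -0.60, SE 0.15, adjusted p = 0.00129). Their low levels limit the precision. Of 15 tubulin genes, 11 fell and 1 rose (0 higher and 14 lower with library totals). TUB5 stood at 88.0, 76.7 and 76.0 CPM in the wild type and 40.5, 37.9 and 42.0 CPM in the libraries labelled gpt2-1 (log2 difference -0.999, SE 0.06, adjusted p = 1.1e-12), while TUB6 fell by 0.44 and TUA4 by 0.38.

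Wall-remodelling families changed in both directions, beside 29.6% higher and 27.6% lower of all tested genes in the TMM fit. For xyloglucan endotransglucosylases, which cut and rejoin wall xyloglucan, 10 of 18 tested members rose and 6 fell (median log2 difference 0.33). XTR6 stood at 9.44, 9.38 and 9.65 CPM in the wild type and 70.3, 70.0 and 71.4 CPM in the libraries labelled gpt2-1 (log2 difference 2.90, SE 0.06, adjusted p = 2.14e-20) and XTH18 had a log2 difference of 1.76. XTH4, a family member of elongating and secondary growing stems, went the other way, at 336, 296 and 303 CPM in the wild type and 155, 145 and 147 CPM in the libraries labelled gpt2-1 (log2 difference -1.06, SE 0.05, adjusted p = 1.74e-14). Pectin methylesterases had 2 of 8 higher and 5 lower, with PME61 at -0.54 and PME3 at -0.44. Arabinogalactan proteins had 13 of 34 higher and 11 lower (11 higher and 20 lower with library totals). AGP2 stood at 16.1, 17.5 and 15.9 CPM in the wild type and 75.9, 76.9 and 82.4 CPM in the libraries labelled gpt2-1 (log2 difference 2.24, SE 0.06, adjusted p = 5.73e-19), and AGP1, AGP15 and AGP20 had log2 differences of 1.40, 1.32 and 1.32. Lipid transfer proteins of the surface had 3 of 5 lower and 0 higher (0 higher and 5 lower with library totals).

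Growth hormone genes fell more often than they rose in the lists of auxin, brassinosteroid and cytokinin, and gibberellin genes went both ways. In gibberellin metabolism and signalling, 5 of 12 rose and 7 fell, all 12 passing. GA20OX1, a late step of synthesis, stood at 10.7, 9.38 and 10.3 CPM in the wild type and 2.71, 2.90 and 2.55 CPM in the libraries labelled gpt2-1 (log2 difference -1.89, SE 0.13, adjusted p = 5.78e-12), and GA3OX1, the final step, fell by 0.84. GA2OX6, which inactivates gibberellin, stood at 13.4, 14.3 and 14.6 CPM in the wild type and 85.7, 83.0 and 77.6 CPM in the libraries labelled gpt2-1 (log2 difference 2.55, SE 0.06, adjusted p = 1.26e-19), whereas another inactivating enzyme, GA2OX8, fell by 1.58. Of the DELLA repressors, GAI fell by 1.21 and RGA1 by 0.34, and RGL3 rose by 1.19. Among GASA peptides, named for their response to gibberellin, 4 of 4 fell. GASA6 stood at 16.2, 12.8 and 15.8 CPM in the wild type and 3.15, 3.92 and 2.75 CPM in the libraries labelled gpt2-1 (log2 difference -2.19, SE 0.13, adjusted p = 8.35e-13) and GASA4 fell by 1.496. GASA1 (-0.39) lost its call without wild type replicate 2 or gpt2-1 replicate 2, and with DESeq2 in place of edgeR.

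For auxin, 12 of 21 Aux/IAA repressors fell and 3 rose, beside 27.6% lower and 29.6% higher of all tested genes in the TMM fit. IAA1 (-1.12) and the gene listed as ATAUX2-11 (-1.11) fell, while IAA18 stood at 14.7, 17.7 and 18.1 CPM in the wild type and 45.8, 46.0 and 45.4 CPM in the libraries labelled gpt2-1 (log2 difference 1.45, SE 0.07, adjusted p = 1.31e-14) and IAA2 had a log2 difference of 0.71. Of 18 SAUR genes, many of which promote cell expansion, 11 fell and 2 rose (1 higher and 15 lower with library totals), and SAUR36 had a log2 difference of -1.70. Auxin response factors had 4 of 15 higher, led by ARF18 (1.67), and 7 lower (3 higher and 11 lower with library totals). For brassinosteroids 3 of 15 rose and 7 fell (1 higher and 10 lower with library totals). BR6OX2, a late enzyme of synthesis, stood at 5.54, 5.49 and 5.79 CPM in the wild type and 0.823, 1.17 and 1.35 CPM in the libraries labelled gpt2-1 (log2 difference -2.32, SE 0.18, adjusted p = 1.09e-10), and the receptor BRI1 rose by 0.34. For cytokinin 1 of 11 rose and 6 fell (0 higher and 9 lower with library totals). The response regulators ARR6 (-0.94), ARR9 (-0.75), ARR8 (-0.45), ARR7 (-0.40) and ARR4 (-0.33), which cytokinin induces, fell with the receptor WOL (-0.57). The regulators ARR5 (-0.0004) and ARR15 (-0.05) and the receptors AHK2 (-0.12) and AHK3 (0.003) did not pass. The degrading enzyme CKX5 rose by 0.47.

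Ethylene genes went both ways. The synthesis genes ACS2 (1.71), ACS6 (0.41) and EFE (0.80) rose, whereas the receptors ETR2, at 65.4, 64.1 and 63.9 CPM in the wild type and 26.8, 21.8 and 23.6 CPM in the libraries labelled gpt2-1 (log2 difference -1.42, SE 0.06, adjusted p = 3.34e-15), and ERS2 (-1.32) fell, as did EBF2 (-1.31), an F-box protein that removes EIN3. EIN3 itself rose by 0.40, and CTR1 (0.02) and EIN2 (-0.10) did not pass. In all, 6 of 15 rose and 6 fell (4 higher and 9 lower with library totals). For abscisic acid and dehydration, 7 of 20 rose and 6 fell (6 higher and 11 lower with library totals). The shares of all tested genes in the TMM fit were 29.6% higher and 27.6% lower. The synthesis enzyme NCED3 (0.57) and the degrading enzyme CYP707A1 (0.96) both rose. The phosphatase HAI2 stood at 20.7, 18.5 and 19.7 CPM in the wild type and 8.47, 8.496 and 7.76 CPM in the libraries labelled gpt2-1 (log2 difference -1.25, SE 0.09, adjusted p = 1.18e-11), and ABI1 fell by 0.55. KIN1, a cold and dehydration protein, rose by 1.49, while COR15A fell by 0.98.

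**Figure D4:**
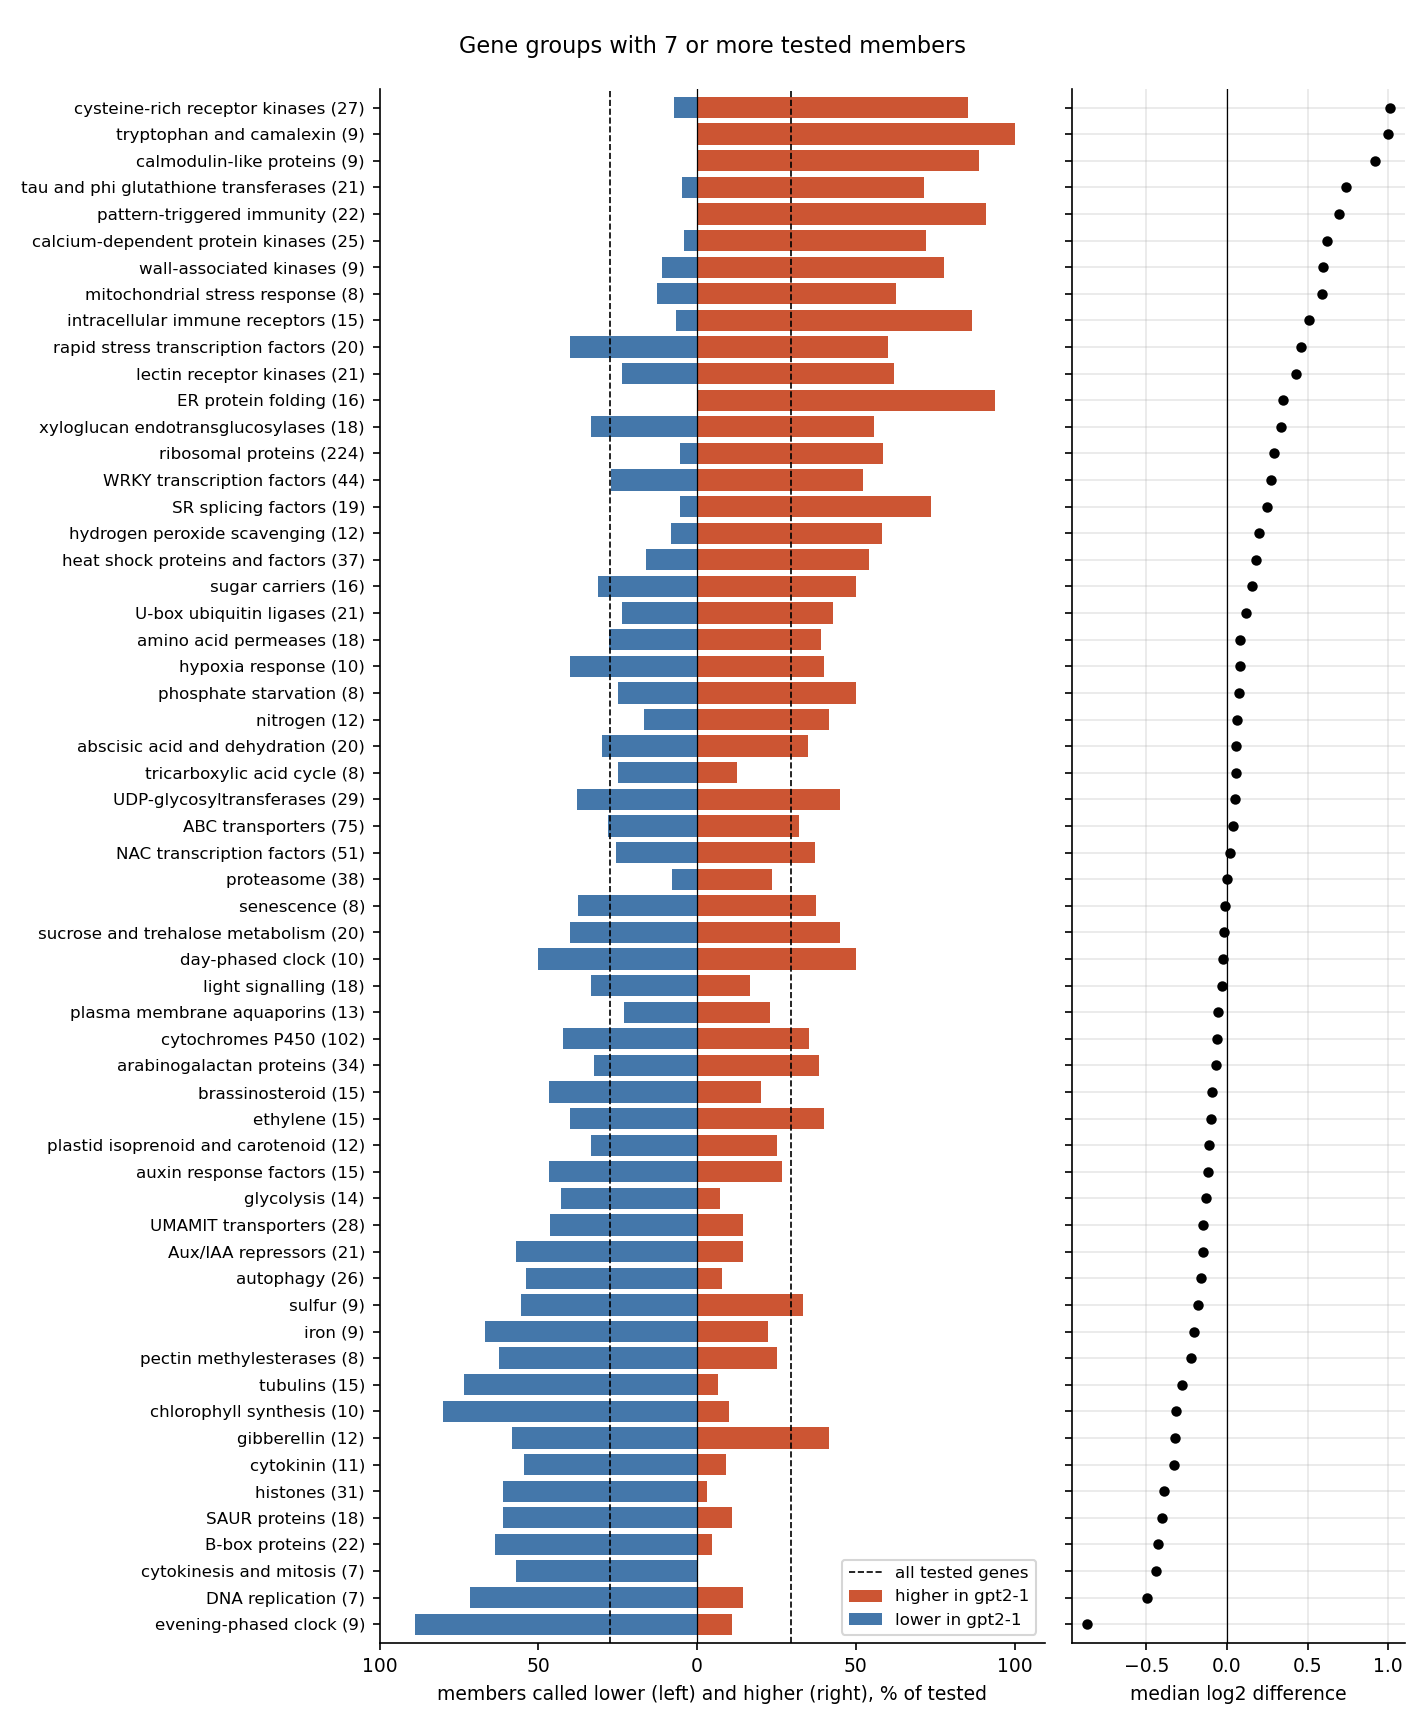
Percent of tested members called lower (left, blue) and higher (right, red) in the libraries labelled gpt2-1 in the TMM fit, for each gene group with 7 or more tested members (number in brackets), with dashed lines at the 27.6% lower and 29.6% higher of all tested genes, and each group's median log2 difference on the right. Cysteine-rich receptor kinases head the order with a median of 1.01 and evening-phased clock genes close it with -0.87.

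Genes of carbon use went both ways, beside 29.6% higher and 27.6% lower of all tested genes in the TMM fit. Of sucrose and trehalose genes 9 of 20 rose and 8 fell (4 higher and 11 lower with library totals). TPS7, a relative of trehalose phosphate synthase, stood at 215, 194 and 221 CPM in the wild type and 554, 558 and 606 CPM in the libraries labelled gpt2-1 (log2 difference 1.45, SE 0.05, adjusted p = 1.52e-16), and GolS1, which starts raffinose synthesis, had a log2 difference of 1.09. The sucrose synthases SUS1 (-0.80), SUS4 (-0.76), SUS5 (-0.68) and SUS6 (-0.83) fell, and SUS3 (0.86) rose. Among sugar carriers 8 of 16 rose and 5 fell (3 higher and 7 lower with library totals). SUT2 (1.35), a sucrose transporter, and the vacuolar glucose exporter ERDL6 (0.96) rose, while the vacuolar importers TMT1 and TMT2 fell by 0.68 and 0.41.

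In nitrogen assimilation the nitrate reductase NIA2 stood at 975, 948 and 902 CPM in the wild type and 1451, 1524 and 1499 CPM in the libraries labelled gpt2-1 (log2 difference 0.66, SE 0.05, adjusted p = 3.46e-11) and the nitrite reductase NIR1 had a log2 difference of 0.39, with 5 of 12 genes higher and 2 lower (2 higher and 7 lower with library totals). Sulfur genes were split, with APS1, which activates sulfate, at 0.77 and LSU2, a marker of low sulfur, at -1.42. In iron homeostasis 2 of 9 rose and 6 fell. The storage protein gene FER3 stood at 19.2, 19.4 and 21.1 CPM in the wild type and 46.3, 46.4 and 50.1 CPM in the libraries labelled gpt2-1 (log2 difference 1.27, SE 0.06, adjusted p = 1.84e-14), and OPT3, which carries iron into the phloem, fell by 0.59. Of the amino acid permeases, AAP4 (1.34), AAP6 (0.70) and LHT7 (2.05) rose and AAP7 fell by 1.14. Of 28 UMAMIT amino acid transporters, 13 fell and 4 rose (1 higher and 19 lower with library totals). WAT1, a member required for secondary walls, stood at 606, 620.2 and 592 CPM in the wild type and 444, 431 and 464 CPM in the libraries labelled gpt2-1 (log2 difference -0.44, SE 0.05, adjusted p = 2.19e-08). Further groups went both ways in the TMM fit, beside 29.6% higher and 27.6% lower of all tested genes. They were phosphate starvation (4 of 8 higher, 2 lower), plasma membrane aquaporins (3 of 13 and 3), senescence (3 of 8 and 3) and plastid isoprenoids (3 of 12 and 4). With library totals they stood at 1 higher and 4 lower, 1 higher and 8 lower, 3 higher and 4 lower and 0 higher and 9 lower, in that order. Among tonoplast aquaporins DELTA-TIP had a log2 difference of -0.35 and TIP2;2 one of 0.65. TIP2 (0.15) and GAMMA-TIP (0.13) were called higher, but both were negative with library totals and both lost the call without wild type replicate 3 or without any of the 3 samples labelled gpt2-1. In phosphate starvation the acid phosphatase PAP17 had the smallest p, with a log2 difference of 0.70.

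Markers of phloem and of fibres and xylem fell by small steps, and markers of pollen, at low levels, rose. Summed over 6 phloem markers, libraries held 740.6 to 771 CPM in the wild type and 667 to 688 CPM under the gpt2-1 label, and 4 of the 6 fell. On library totals the same sums were 809.8 to 820.4 and 611.8 to 636.6 CPM. The 6 fibre and xylem markers summed to 4001 to 4706 CPM in the wild type and 3733 to 3831 CPM under the gpt2-1 label, and 5 of 6 fell. On library totals they summed to 4375 to 5007 and 3424 to 3545 CPM. Of the 3 guard cell markers KAT1 fell by 0.87 and the others did not pass. Pollen markers were higher: VGD1 stood at 5.50, 8.13 and 5.68 CPM in the wild type and 22.2, 22.0 and 19.2 CPM in the libraries labelled gpt2-1 (log2 difference 1.70, SE 0.11, adjusted p = 5.88e-12), AGP11 had a log2 difference of 1.34 and AGP6 1.24. The 5 pollen markers summed to 11.3 to 17.6 CPM in the wild type and 31.1 to 35.4 CPM under the gpt2-1 label on library totals, with DUO1 at 0 in all 6 libraries. No flower, seed or root marker reached a mean of 2 CPM over the 6 libraries, so these were not tested. On library totals the seed markers summed to 0.870 to 2.29 CPM in the wild type and 2.51 to 5.67 CPM under the gpt2-1 label, with the seed storage albumin SESA1 at 0.394, 0.497 and 0.663 CPM against 2.42, 2.76 and 2.30 CPM. The flower markers summed to 4.10 to 5.56 and 3.98 to 5.33 CPM, and the root markers to 1.39 to 2.23 and 1.73 to 3.49 CPM. AGP6 and AGP11 are also among the arabinogalactan proteins counted above. The part of differing tissue composition in the other results was not tested.

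Promoters of the genes that changed most differed in their short motifs. Windows from 250 bases before to 50 after the RefSeq start were searched on both strands. The G-box was searched as CACGTG, which light and stress factors bind. The GCC-box of ERF factors was searched as GCCGCC. The evening element was AAATATCT and the site II element TGGGCC. The W-box was TTGACC, or the same letters with T in the last place. The CGCG element was CGCGTT, or the same letters with G in the last place. Both forms of these were counted together, and no motif contains another. A CGCG element was in 18.5% of the 952 windows of protein-coding genes at least 2-fold higher, in 3.46% of the 289 at least 2-fold lower, in 7.13% of all 15985 tested and in 6.05% of all 27443 windows. The W-box was in 47.4%, 24.9%, 32.6% and 32.4%, in the same order. For the evening element the order turned: 6.30% among the higher genes, 15.2% among the lower, 6.11% of all tested and 5.65% of all windows. The G-box was in 11.1%, 6.92%, 9.13% and 7.68%, and the GCC-box in 2.94%, 1.73%, 2.58% and 2.57%. The site II element was in 9.66%, 6.57%, 19.97% and 15.5%, so it was rarer in both changed sets than in all tested genes. These shares are descriptions of letters in windows, and a match is not a bound site.

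**Figure D5:**
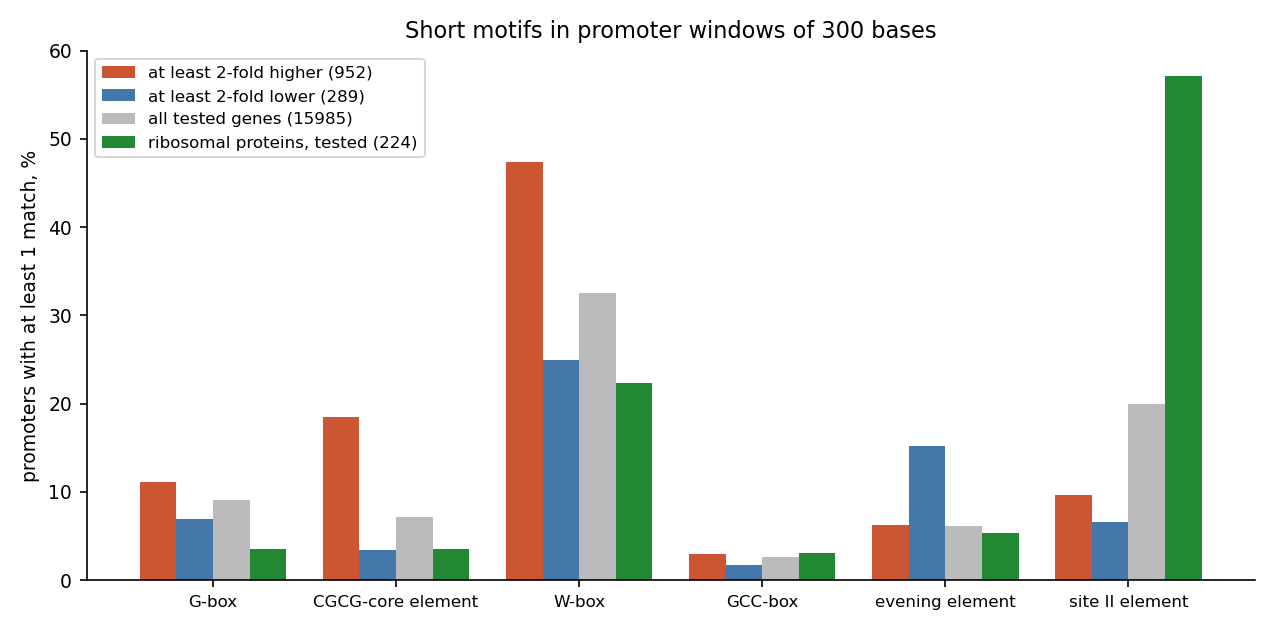
Percent of promoter windows (y axis) with at least 1 match to each motif (x axis) for protein-coding genes at least 2-fold higher or at least 2-fold lower in the libraries labelled gpt2-1, for all tested genes and for tested ribosomal protein genes, with the number of windows in brackets. The CGCG-core element reaches 18.5% among the higher genes, the evening element 15.2% among the lower genes and the site II element 57.1% among ribosomal protein genes.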

How the data were processed

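RNA from stems was measured by RNA sequencing in 3 samples labelled gpt2-1 and 3 of Col-0 set 1. The authors deposited raw read counts per gene for each sample. Per the submitters' processing notes STAR, DESeq2 and TAIR10 played some part. The counter, its strand setting and the annotation were not given in the sources used here. The 4 sequencing records of a sample share 1 table and were counted as 1 sample. No label says which plants made up a sample, so p-values measure the spread between these samples. Of 38186 rows, 219 named no gene (0.000941% to 0.00117% of the counts) and were left out. Total counts were 16591521 to 24150373. Replicate pairs differed by more than counting error, with chi-square over its degrees of freedom at 2.16 to 5.34, and the first principal component held 88.3% of the variance and separated the groups. Names, coordinates and promoter sequences came from RefSeq's TAIR10.1. Promoters end at the gene's annotated start. All 37967 locus identifiers matched. Groups were compared with edgeR 4.0.16 (R 4.3.3), its quasi-likelihood F test with TMM scaling on genes with a mean of at least 2 CPM, Benjamini-Hochberg adjustment and an adjusted p under 0.05. The SE is the log2 difference divided by the root of the F statistic. The fit was tested on simulated data with few changed genes, balanced between rises and falls. That simulation did not test the TMM scaling under the uneven changes of these data. DESeq2 1.42.0, RLE factors, other filters, a fit with HCT-RNAi, a replicate block, left-out samples and genes without opposite-strand exons were alternatives. Named genes were GPT2, the 15 largest rises and falls with a symbol, at least 10 CPM and no overlap between groups, the 10 genes that gained and lost most CPM, up to 4 members with the smallest p per list, and genes read in 1 group only (at most 3 counts in the other). Further list members in the text were picked after their values were seen. There were 72 gene lists, 5 of them with no tested member, and lists are described by counts and medians without a test. Groups, members and lists were chosen with earlier results of these data known. The 35S GPT2 and second Col-0 samples were not used here.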

Additional observations from a re-analysis of the deposited data

How the results depend on the processing

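The counts of genes higher and lower stayed within 1.5 times of the reported 4809 and 4481 under 13 of 14 alternatives, the exception being library totals. Leaving out 1 sample at a time gave 4315 to 4648 higher and 3925 to 4446 lower genes, with 960 to 994 at least 2-fold higher and 298 to 324 at least 2-fold lower. DESeq2 gave 4336 and 3815, and the fit with the replicate block 4765 and 4432, with 973 and 293 at 2-fold. Replicate numbers did not pair the samples: same-numbered samples had correlations of -0.029, 0.028 and -0.011 in their deviations from the group means. Library totals without TMM scaling, added after seeing that the TMM factors separate the groups, gave 2838 higher, 9277 lower and 638 at least 2-fold lower genes. The 11959 genes without exons opposite another gene's gave 3639 higher and 3396 lower. The filterByExpr rule gave 542 at least 2-fold lower genes, and no filter on low counts gave 1677 and 678 at 2-fold, over more genes of low count. GPT2 kept its direction and its call in all 14 alternatives. Of 291 other named genes, 16 lost the call or the direction somewhere. Library totals reversed SQD2 (-0.0263), AGL8 (-0.11), TIP2 (-0.0759) and GAMMA-TIP (-0.0926). CAB1, AGL8, HIK, GASA1, AGL24, TIP2 and GAMMA-TIP lost their call when a sample was left out. With DESeq2, AGL8, HIK, GASA1 and AGL24 lost their call. Of 2016 list counts under the alternatives, 180 moved by over 1.5 times, 59 of them with library totals. Genes at a few CPM, such as those of replication, are the least precise.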

Other observations

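In all, 15 genes were at least 10-fold higher and 3 at least 10-fold lower, among them GPT2, ABR1, AOC1 and CYP81G1. AT3G01345, TPS04 and OPT2 were picked after their values were seen. AT3G01345, an uncharacterized gene on chromosome 3 (129138 to 130749), held 2374, 2656 and 1581 counts in the wild type libraries and 8, 1 and 1 in those labelled gpt2-1 (log2 difference -9.14, SE 0.17, adjusted p = 3.03e-21). The HCT-RNAi libraries of the series held 1111, 894 and 981. Its tested neighbours AT3G01340 and AT3G01360 had log2 differences of 0.14 and -0.14. AT5G27500, the gene read in 1 group only and annotated as a pseudogene on chromosome 5 (9708136 to 9709444), held 0 counts in each wild type and each HCT-RNAi library and 139, 133 and 132 in those labelled gpt2-1. That is at least 129-fold higher on library totals against a floor of 3 counts over the wild type group. Its neighbours AT5G27490 and PNC2 had log2 differences of -0.85 and 1.44. TPS04, a terpene synthase, went from 0.395 ± 0.089 to 11.3 ± 3.07 CPM, and OPT2, an oligopeptide transporter, from 0.657 ± 0.0848 to 7.999 ± 0.882 CPM.

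Genes near GPT2 did not move as a block. Within 50 kb on each side, 3 of 13 other tested genes rose and 2 fell, with a median of 0.0046. Of all tested genes, 29.6% were higher and 27.6% lower. The adjacent BGLU45 had a log2 difference of 0.10 and did not pass, while the next gene, BGLU46, a beta-glucosidase of monolignol glucosides, rose by 1.00 (243 to 485 CPM). The largest difference among these 13 was that of the MATE carrier AT1G61890, named above for its gain, at 1.95. Among product descriptions shared by at least 20 tested genes, those named disease resistance protein had the highest median of a named protein family, as 57 of 92 rose and 14 fell (median 0.40). For MATE efflux proteins 17 of 34 rose and 4 fell (median 0.32), and for type 2C phosphatases 23 of 46 rose and 6 fell (median 0.17). Falls outnumbered rises in several other families, beside the 29.6% higher and 27.6% lower of all tested genes. For HXXXD-type acyltransferases 8 of 28 rose and 16 fell (median -0.44), and for leucine-rich receptor-like kinases 5 of 20 rose and 13 fell (median -0.38). For pectin lyase-like proteins 8 of 35 rose and 20 fell (median -0.29). For pentatricopeptide repeat proteins, which process organelle RNA, 14 of 118 rose and 47 fell (median -0.20). Leucine-rich repeat kinases exceeded both shares of all tested genes, as 25 of 74 (33.8%) rose and 33 (44.6%) fell (median -0.15).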
